A study of Saccharomyces cerevisiae with 24 samples.

Results

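Ras and protein kinase A (PKA) form the main glucose-sensing pathway of budding yeast, and 9 of its genes were followed through a heat shock in 4 strains. They were taken by name, with earlier results of these data known. The list holds the receptor gene GPR1 (YDL035C), the GTPase genes RAS1 (YOR101W) and RAS2 (YNL098C) and the adenylate cyclase gene CYR1 (YJL005W). It also holds the phosphodiesterase genes PDE1 (YGL248W) and PDE2 (YOR360C), the regulatory subunit gene BCY1 (YIL033C) and the catalytic subunit genes TPK2 (YPL203W) and TPK3 (YKL166C). These genes are 9 of the 5449 Saccharomyces cerevisiae genes with a probe set, a set of short DNA probes for 1 transcript. Each has 1 probe set, and all 9 were among the 5395 genes tested.

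RNA came from 4 laboratory strains on 24 Affymetrix Yeast Array 2.0 arrays: the double deletion delta-pbf1 delta-pbf2, the single deletions delta-pbf2 and delta-pbf1, and the wild type BY4741. PBF1 is TOD6 and PBF2 is DOT6, related repressors that bind the PAC motif upstream of many ribosome biogenesis genes. Every culture grew at 25 °C. One portion of a culture was taken after 20 min at 37 °C and the other at 0 min, so that each of the 8 groups of strain and time has 3 arrays, 1 per culture. The labels number the arrays of both times alike, and arrays of 1 number are taken here as 1 culture, which the labels do not state outright. Whether the 3 cultures of a strain came from separate clones is not given in any source used, so p-values speak for each strain as it was deposited. The limma p-values and SE rest on the spread between arrays within groups, pooled for each gene over all 8 groups. The arrays of the 2 times enter that fit unpaired. A gene's SE is therefore the same in each strain and is not that strain's own spread between cultures.

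TOD6 was at background in the pbf1 and double deletions, and DOT6 in the pbf2 and double deletions except on 1 array of the double deletion at 0 min. URA3, an enzyme of uracil synthesis, was above background on 6 of 24 arrays, all of them of the double deletion, so that strain differs from the others by this gene too. The a-cell genes MFA1, MFA2, STE2, BAR1 and AGA2 were above background on 24 of 24 arrays. Of the alpha-cell genes, MF(ALPHA)1 was above background on 2 arrays, whereas MF(ALPHA)2 was above it on 23, with signals up to 31.9, and STE3 on all 24, with signals up to 124. The median gene signal lay between 453 and 572 over the arrays, and the background, the 95th percentile of probe sets for genes outside S. cerevisiae, between 9.02 and 11.6. The 9 pathway genes had signals between 216 and 3468, all 216 of them above background. Precision is limited by 3 arrays per group. In bulk samples of cells, fewer cells of a type and less RNA per cell cannot be told apart.

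The pathway works through cyclic AMP. Ras proteins bound to GTP, and the receptor Gpr1 through the G protein Gpa2, stimulate adenylate cyclase. The cyclic AMP that it makes binds the regulatory subunit Bcy1, which then releases the catalytic subunits, Tpk2 and Tpk3 among them. The phosphodiesterases Pde1 and Pde2 break cyclic AMP down again. High PKA activity is known to favour growth and ribosome production and to keep stress transcription factors such as Msn2 and Msn4 out of the nucleus.

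In the wild type, 7 of the 9 genes had higher signals after heat shock and 2 had lower ones, each past the threshold (limma, Benjamini-Hochberg adjusted p below 0.05). Of all genes tested, 51% were called higher and 29.7% lower in the same comparison, 80.7% in all, so a call by itself sets no pathway gene apart. The signal ranges of the 3 arrays at 20 min and the 3 at 0 min were apart for 9 of the 9 genes, against 81.4% of all genes. The median log2 change of the 9 genes was 1.09 in the wild type, against 0.27 over all genes tested. PDE1 changed most, at 4.55-fold higher, and RAS1 was the strongest fall, at 3.08-fold lower. The share of all genes with a larger log2 change than PDE1 was 4.73%, and the share with a lower change than RAS1 was 6.64%.

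**Figure D1:**
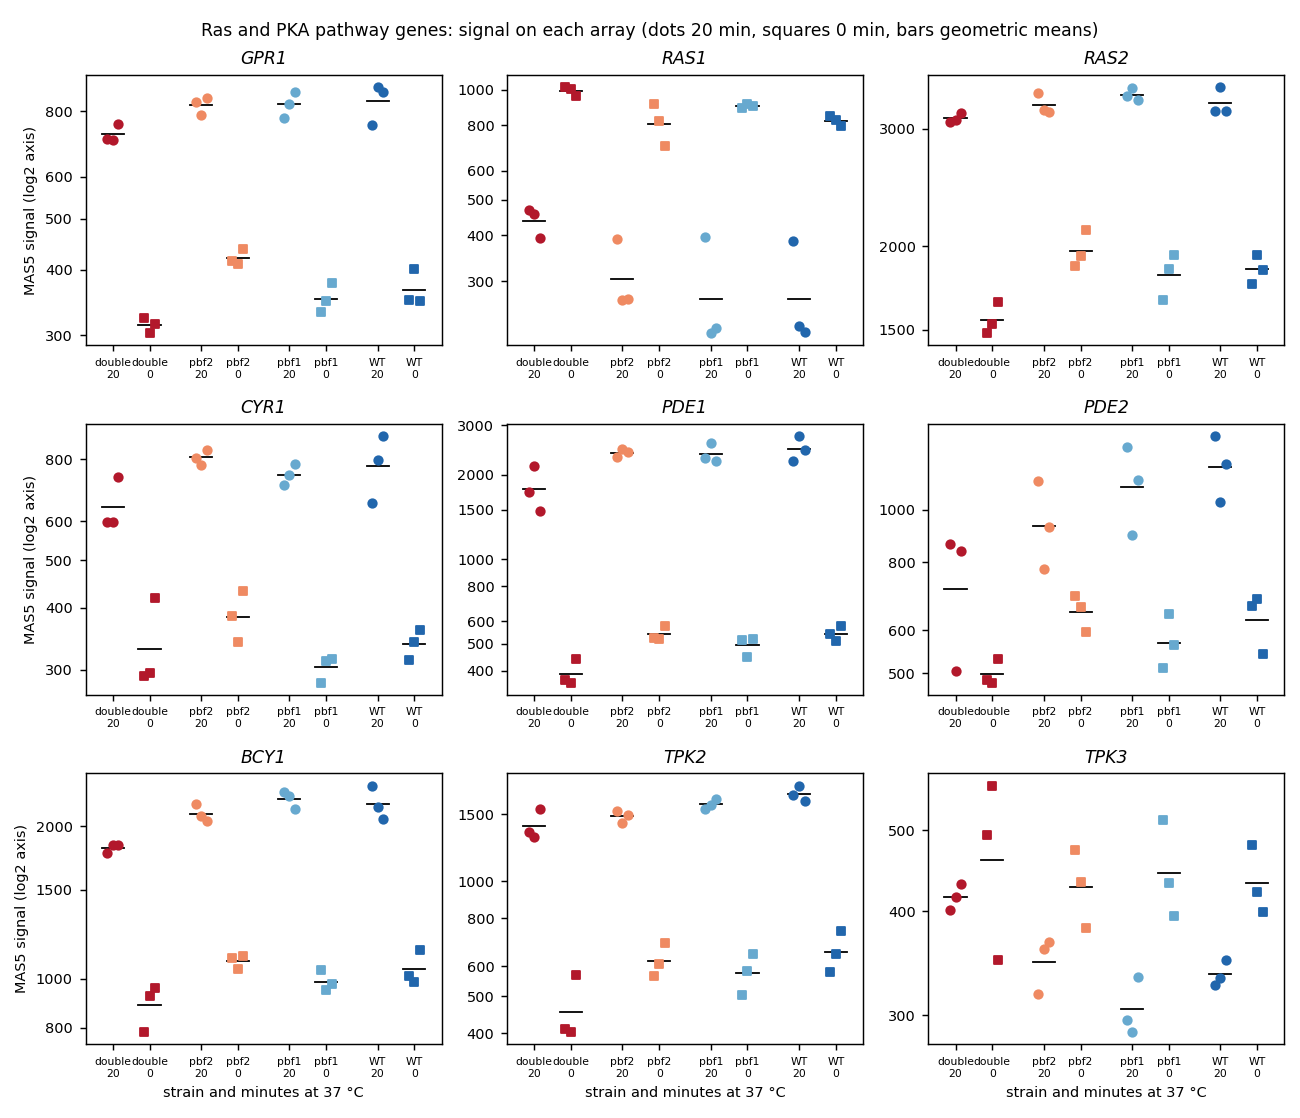
MAS5 signal (log axis) of each of the 9 pathway genes on every array, with 20 min left of 0 min and the strains from the double deletion to the wild type. Points are arrays and bars are geometric means of 3. RAS1 is lower at 20 min in each strain, whereas PDE1 has no 20 min array below 1487 and no 0 min array above 580.

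The glucose receptor gene GPR1 rose with heat shock in each strain, with fold changes between 1.96 and 2.35. In the double deletion it had signals of 710, 706 and 757 at 20 min and 323, 303 and 315 at 0 min. In the pbf2 deletion it had 834, 788 and 848 at 20 min and 416, 410 and 437 at 0 min, and in the pbf1 deletion 778, 827 and 872 at 20 min and 332, 348 and 376 at 0 min. The wild type had 754, 890 and 870 at 20 min, against 350, 402 and 349 at 0 min. Times did not overlap in any strain. The log2 change was 1.21 in the double deletion, 0.97 in the pbf2 deletion, 1.23 in the pbf1 deletion and 1.19 in the wild type, each ± 0.07 (SE, n = 3 cultures; limma adjusted p at most 1.53e-10).

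The paralogous GTPase genes moved in opposite directions. RAS1 had signals of 470, 457 and 394 at 20 min and 1019, 1004 and 959 at 0 min in the double deletion. It had 392, 267 and 269 at 20 min and 915, 824 and 701 at 0 min in the pbf2 deletion, and 396, 216 and 224 at 20 min and 893, 914 and 901 at 0 min in the pbf1 deletion. The wild type had 387, 227 and 218 at 20 min, against 848, 826 and 796 at 0 min. Each array at 20 min was below each array at 0 min of its strain, and the first culture was the highest at 20 min in all 4 strains. RAS1 fell by 1.18 in the double deletion (log2 -1.18 ± 0.20, adjusted p = 2.19e-05), and its log2 change was -1.41 in the pbf2 deletion, -1.75 in the pbf1 deletion and -1.62 in the wild type (adjusted p = 2.9e-07; limma).

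RAS2, which encodes the other Ras protein, rose. It had signals of 3071, 3096 and 3172 at 20 min and 1483, 1530 and 1649 at 0 min in the double deletion, and 3191, 3468 and 3191 at 20 min, against 1758, 1944 and 1847 at 0 min, in the wild type. In the single deletions it lay between 3184 and 3452 at 20 min and between 1662 and 2116 at 0 min. The log2 change was 1.00 in the double deletion, 0.72 in the pbf2 deletion, 0.90 in the pbf1 deletion and 0.83 in the wild type, each ± 0.06. Taken culture by culture, the RAS2 change exceeded the RAS1 change by 2.18 ± 0.04 (log2, SD, n = 3) in the double deletion, 2.14 ± 0.20 in the pbf2 deletion, 2.65 ± 0.41 in the pbf1 deletion and 2.45 ± 0.40 in the wild type. These are differences between changes and not between the levels of separate probe sets.

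CYR1, the adenylate cyclase gene, was higher after heat shock in each strain. Its signals were 597, 597 and 736 at 20 min and 291, 296 and 419 at 0 min in the double deletion. The pbf2 deletion had 807, 780 and 837 at 20 min and 385, 341 and 433 at 0 min, and the pbf1 deletion 709, 745 and 781 at 20 min and 283, 312 and 316 at 0 min. The wild type had 652, 799 and 891 at 20 min, against 314, 342 and 361 at 0 min. The times were apart in all 4 strains. Its log2 change was 0.95 in the double deletion, 1.07 in the pbf2 deletion, 1.30 in the pbf1 deletion and 1.19 in the wild type, each ± 0.13 (limma adjusted p at most 7.95e-07).

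The phosphodiesterase genes both rose, PDE1 by far the more. PDE1, which encodes the low-affinity enzyme, had signals of 1739, 2150 and 1487 at 20 min and 372, 363 and 441 at 0 min in the double deletion. It had 2317, 2459 and 2407 at 20 min and 522, 519 and 580 at 0 min in the pbf2 deletion, and 2286, 2595 and 2236 at 20 min and 514, 449 and 519 at 0 min in the pbf1 deletion. The wild type had 2228, 2739 and 2456 at 20 min, against 539, 511 and 576 at 0 min. Its fold change was alike in size in the 4 strains, at 4.54 in the double deletion, 4.43 in the pbf2 deletion, 4.80 in the pbf1 deletion and 4.55 in the wild type (log2 2.18, 2.15, 2.26 and 2.19 in that order, each ± 0.11).

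PDE2, the gene of the high-affinity phosphodiesterase, had signals of 866, 504 and 839 at 20 min and 485, 481 and 532 at 0 min in the double deletion, where the second culture at 20 min lay inside the 0 min range. It had 1130, 778 and 928 at 20 min and 693, 661 and 595 at 0 min in the pbf2 deletion, and 1306, 899 and 1134 at 20 min and 511, 642 and 563 at 0 min in the pbf1 deletion. The wild type signals were 1365, 1033 and 1216 at 20 min, against 665, 685 and 542 at 0 min. The second culture was the lowest at 20 min in all 4 strains. The log2 change was 0.52 in the double deletion (adjusted p = 0.0112), 0.53 in the pbf2 deletion (adjusted p = 0.0107), 0.95 in the pbf1 deletion and 0.93 in the wild type (adjusted p = 6.54e-05), each ± 0.18 by limma.

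The weaker PDE2 calls rested on single arrays and on the scaling. Without the first 20 min array of the double deletion its change was 0.38 (adjusted p = 0.0753), and without the third array it was 0.41 (adjusted p = 0.0651). Without the first 20 min array of the pbf2 deletion the change there was 0.39 (adjusted p = 0.0717). Centring on the array medians gave 0.26 (adjusted p = 0.192) in the double deletion and 0.33 (adjusted p = 0.1) in the pbf2 deletion, all with limma. Hybridization control centring gave 0.22 (adjusted p = 0.353) and 0.29 (adjusted p = 0.229) in that order. Quantile normalization gave 0.27 (adjusted p = 0.172; limma) in the double deletion. The direction was the same with each of these choices, but centring on the spike-in controls turned it in all 4 strains, to -0.53 in the double deletion, -0.22 in the pbf2 deletion, -0.27 in the pbf1 deletion and -0.069 in the wild type, with no PDE2 call left. In the authors' deposited table the PDE2 log2 ratios were 0.27 in the double deletion, 0.35 in the pbf2 deletion, 0.75 in the pbf1 deletion and 0.73 in the wild type. Per culture, the PDE1 change exceeded the PDE2 change by 1.66 ± 0.74 (log2, SD, n = 3) in the double deletion, 1.62 ± 0.34 in the pbf2 deletion, 1.31 ± 0.65 in the pbf1 deletion and 1.26 ± 0.50 in the wild type.

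BCY1, the single gene of the PKA regulatory subunit, rose about as much in each strain. Its signals were 1774, 1835 and 1838 at 20 min and 784, 923 and 958 at 0 min in the double deletion. In the wild type they were 2407, 2188 and 2070 at 20 min, against 1013, 982 and 1141 at 0 min. The single deletions lay between 2046 and 2339 at 20 min and between 947 and 1109 at 0 min. The log2 change was 1.04 in the double deletion, 0.96 in the pbf2 deletion, 1.20 in the pbf1 deletion and 1.09 in the wild type, each ± 0.07, and times were apart in all 4 strains.

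Of the catalytic subunit genes, TPK2 rose in each strain and TPK3 fell in 3 of the 4 as the authors scaled the arrays. TPK2 had 1347, 1303 and 1546 at 20 min and 410, 403 and 568 at 0 min in the double deletion. It had 1532, 1424 and 1491 at 20 min and 566, 606 and 690 at 0 min in the pbf2 deletion, and 1546, 1581 and 1647 at 20 min and 506, 583 and 644 at 0 min in the pbf1 deletion. For the wild type they were 1684, 1779 and 1622 at 20 min, against 580, 645 and 740 at 0 min. The ranges were far apart in each strain. The log2 change was 1.62 in the double deletion, 1.26 in the pbf2 deletion, 1.47 in the pbf1 deletion and 1.38 in the wild type, each ± 0.12 (limma adjusted p at most 3.37e-09).

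As the authors scaled the arrays, TPK3 had the smallest change of the 9 in each strain. It had signals of 401, 416 and 431 at 20 min and 493, 565 and 349 at 0 min in the double deletion, where the times overlapped. It had 318, 361 and 367 at 20 min and 473, 433 and 381 at 0 min in the pbf2 deletion, and 296, 286 and 334 at 20 min and 514, 432 and 394 at 0 min in the pbf1 deletion. Wild type signals were 326, 333 and 350 at 20 min, against 480, 422 and 398 at 0 min. The times did not overlap in the wild type and the single deletions. The log2 change was -0.15 in the double deletion (adjusted p = 0.32), -0.30 in the pbf2 deletion (adjusted p = 0.0466), -0.54 in the pbf1 deletion (adjusted p = 0.00083) and -0.36 in the wild type (adjusted p = 0.0167), each ± 0.13 by limma.

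Several TPK3 results rested on single arrays and on the scaling. In the pbf2 deletion the call was lost with the culture as a block (adjusted p = 0.075) and without any 1 of 14 arrays. These were the first and second arrays at 0 min (log2 -0.22 and -0.29), the 3 arrays at 20 min (-0.23, -0.32 and -0.34) and 9 arrays of other groups, with adjusted p between 0.0506 and 0.175. In the wild type it was lost without the first array at 0 min (-0.29, adjusted p = 0.083). In the double deletion, leaving out the third array at 0 min gave -0.34 (adjusted p = 0.00952), all by limma. Each of the 4 other scalings also called the fall there, at -0.41 with quantile normalization (adjusted p = 0.00501), -0.41 with median centring (adjusted p = 0.0042), -0.45 with hybridization control centring (adjusted p = 0.0327) and -1.20 with spike-in centring (adjusted p = 0.00642; limma). The direction stayed below 0 in each of these fits. The authors' deposited table lists TPK3 log2 ratios of -0.62 in the double deletion, -0.66 in the pbf2 deletion, -0.95 in the pbf1 deletion and -0.73 in the wild type. Per culture, the TPK2 change exceeded the TPK3 change by 1.76 ± 0.54 (log2, SD, n = 3) in the double deletion, 1.56 ± 0.42 in the pbf2 deletion, 2.01 ± 0.41 in the pbf1 deletion and 1.74 ± 0.39 in the wild type.

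**Figure D2:**
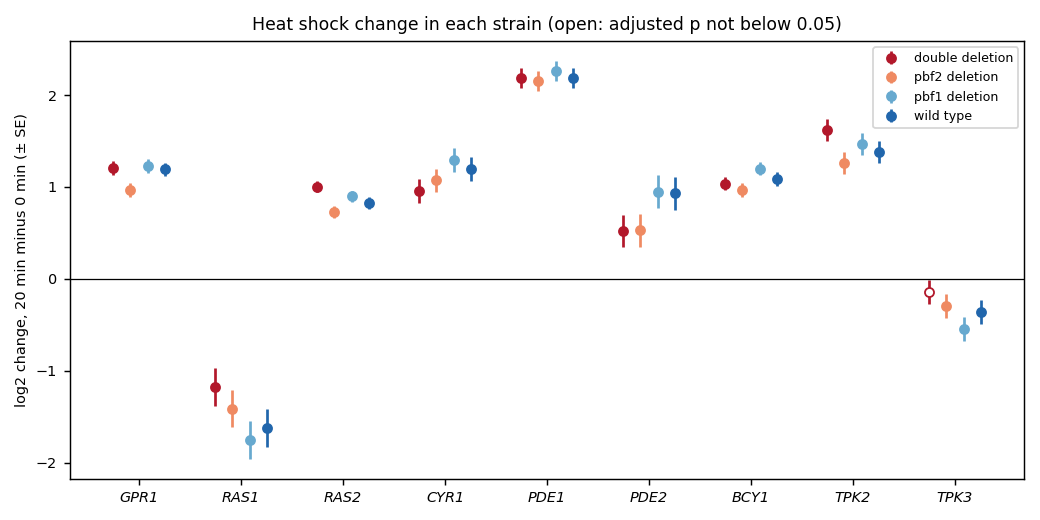
Heat shock change (log2 of 20 min over 0 min, ± SE of limma, 3 cultures per strain) of the 9 genes, with the double deletion left and the wild type right within each gene. Filled points passed an adjusted p of 0.05. TPK3 in the double deletion, at -0.15, is the one open point, at the scaling of the authors.

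Across the strains the counts were close. The deletions of pbf1 and of pbf2 each had 7 of the 9 genes higher and 2 lower, against 51.2% higher and 30.4% lower of all genes in the pbf1 deletion and 48.4% higher and 30.1% lower in the pbf2 deletion. In the double deletion 7 genes were higher, 1 was lower and TPK3 was not called, against 48.5% of all genes higher and 30.9% lower. Time ranges were apart for 7 of the 9 genes in the double deletion, against 79.1% of all genes. The median log2 change of the 9 genes was 1.00 in the double deletion against 0.21 over all genes, 0.96 in the pbf2 deletion against 0.21, and 1.20 in the pbf1 deletion against 0.27.

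These changes are relative to the scaling of the arrays, which the authors' MAS5 signals carry as an equal trimmed mean on every array. The median gene changed by 0.27 in the wild type as scaled, by 0.04 after quantile normalization, by 0.08 after median centring and by -0.73 with the arrays centred on their poly(A) spike-in controls. Relative to the median gene, PDE1 changed by 1.92 and TPK2 by 1.11 in the wild type, whereas RAS1 changed by -1.89 and TPK3 by -0.63. Spike-in centring left 3 of the 9 genes called in each strain, PDE1 higher and RAS1 and TPK3 lower, in place of 7 higher and 2 lower in the wild type. PDE1 then had a wild type log2 change of 1.19 (adjusted p = 0.0102, limma), RAS1 of -2.62 and TPK3 of -1.36. The mean log2 signal of these controls itself ranged from 4.61 to 7.23 over the arrays, and their part in the result was not tested.

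**Figure D3:**
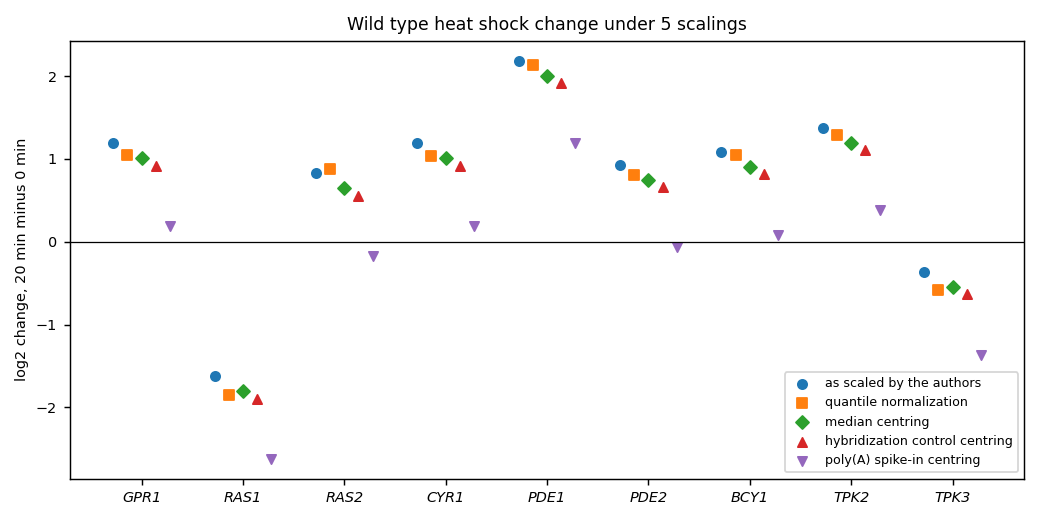
Heat shock change in the wild type (log2 of 20 min over 0 min) of the 9 genes under each scaling of the arrays. RAS1 and TPK3 are below 0 and PDE1, TPK2, BCY1, CYR1 and GPR1 above 0 under each scaling shown, whereas RAS2 and PDE2 lie below 0 with spike-in centring, at -0.17 and -0.07.

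No response difference between a deletion and the wild type was called for any of the 9 genes. For the double deletion minus the wild type 0 of 9 were called by limma, 0 with an unadjusted p below 0.05, against 27.8% of all genes called. For the pbf2 deletion 0 were called and 1 had an unadjusted p below 0.05 (GPR1, -0.22, 95% interval -0.44 to -0.01, adjusted p = 0.318), against 1.71% of all genes called. For the pbf1 deletion 0 were called and 0 had an unadjusted p below 0.05, against 0% of all genes called and 183 genes with an unadjusted p below 0.05. The part of the double deletion response that exceeds the single deletions added together was called for 0 of 9 genes, 0 with an unadjusted p below 0.05, against 4.23% of all genes. An exact two-sided permutation test of the change per culture, over 27 comparisons of a gene and a deletion with the wild type, gave adjusted p of at least 0.75, and 3 cultures against 3 cannot go below 0.1 before adjustment.

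The intervals show how large a difference these arrays could have missed. The PDE1 response in the double deletion minus that in the wild type was -0.01 (log2, 95% interval -0.33 to 0.32), that of GPR1 0.02 (-0.20 to 0.23) and that of BCY1 -0.05 (-0.27 to 0.17). The RAS2 difference was 0.18 (-0.01 to 0.36, limma adjusted p = 0.159). Wider intervals were those of PDE2, at -0.41 (-0.94 to 0.11, adjusted p = 0.243), and RAS1, at 0.44 (-0.16 to 1.05, adjusted p = 0.276). TPK2, TPK3 and CYR1 differed by 0.24 (-0.11 to 0.59), 0.22 (-0.17 to 0.61) and -0.24 (-0.62 to 0.14) in that order.

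The outcome for RAS1 depended on 1 array. Without the first 20 min array of the wild type, where RAS1 had a signal of 387 against 227 and 218 on the others, the response difference of the double deletion was 0.71 (adjusted p = 0.0436, limma). With the first 20 min arrays of all 4 strains left out, an alternative chosen after seeing the data, it was 0.66 (adjusted p = 0.00083). The TPK2 difference was 0.40 (adjusted p = 0.0432) without the third 0 min array of the double deletion.

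Before heat shock the double deletion had lower levels of several pathway genes. Of the 9 genes, 5 were lower than in the wild type at 0 min and 0 were higher, against 16% lower and 8.47% higher of all genes tested. TPK2 differed most (log2 -0.52 ± 0.12, adjusted p = 0.0031), with 410, 403 and 568 in the double deletion and 580, 645 and 740 in the wild type, followed by PDE1 (-0.47 ± 0.11, adjusted p = 0.00389). RAS2 (-0.25 ± 0.06, adjusted p = 0.00662), BCY1 (-0.24 ± 0.07, adjusted p = 0.0248) and GPR1 (-0.22 ± 0.07, adjusted p = 0.0332) were lower by less, all by limma. The array ranges of the 2 strains were apart for 7 of the 9 genes, these 5 and RAS1 and PDE2, against 39.5% of all genes. PDE2 (-0.33, adjusted p = 0.185), RAS1 (0.27, adjusted p = 0.362), TPK3 (0.09) and CYR1 (-0.03) were not called. The RAS1 SE of 0.20 was pooled over all 8 groups. RAS1 signals at 0 min were 959 to 1019 in the double deletion and 796 to 848 in the wild type. Fitted with only the groups compared, RAS1 was called higher (adjusted p = 0.0207) and PDE2 lower (adjusted p = 0.0458). That fit ended the calls of BCY1 (adjusted p = 0.109) and GPR1 (adjusted p = 0.105; limma). The count of 0 higher therefore holds for the fit of all 8 groups.

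The 2 smallest of the 5 calls at 0 min in the fit of all groups rested on single arrays. BCY1 was no longer called without the first array of the double deletion (-0.15, adjusted p = 0.164) or the third of the wild type (-0.17, adjusted p = 0.145). GPR1 was no longer called without the second (-0.20, adjusted p = 0.111) or the third array (-0.23, adjusted p = 0.0556) of the double deletion or the second of the wild type (-0.16, adjusted p = 0.176; limma). TPK2, PDE1 and RAS2 kept the call without any 1 array, but RAS2 lost it with hybridization control centring (-0.16, adjusted p = 0.4). That centring also ended the calls of BCY1 (adjusted p = 0.586) and GPR1 (adjusted p = 0.548). Median centring ended both as well (adjusted p = 0.0922 and 0.0887), and quantile normalization ended that of GPR1 (-0.13, adjusted p = 0.27; limma). With spike-in centring all 5 calls at 0 min ended, and RAS2, BCY1 and GPR1 changed sign.

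At 20 min the double deletion had 5 of the 9 genes lower than the wild type and 1 higher, against 32.4% lower and 20.9% higher of all genes. RAS1 was higher, at 470, 457 and 394 in the double deletion and 387, 227 and 218 in the wild type, a 1.64-fold difference (log2 0.71 ± 0.20, limma adjusted p = 0.00585) with no overlap. PDE2 was lower, at 866, 504 and 839 in the double deletion, against 1365, 1033 and 1216 in the wild type (-0.74 ± 0.18, adjusted p = 0.00145). PDE1 (-0.48 ± 0.11, adjusted p = 0.00104) and BCY1 (-0.29 ± 0.07, adjusted p = 0.00274) were lower with ranges apart. The BCY1 call was lost with hybridization control centring (-0.22, limma adjusted p = 0.194). Ranges were apart for 7 of the 9 genes, against 55.9% of all genes.

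TPK2 and GPR1 were called at 20 min by a narrow margin. TPK2 had a log2 difference of -0.28 ± 0.12 at a limma adjusted p of 0.04995. Its call was lost without any 1 of 14 arrays (limma adjusted p between 0.0545 and 0.158), 5 of them 20 min arrays of the groups compared. These were the first (-0.25) and second (-0.23) of the double deletion and the first (-0.28), the second (-0.24) and the third (-0.31) of the wild type. The GPR1 ranges overlapped, and its difference of -0.21 ± 0.07 (adjusted p = 0.0229) was no longer called without the first (-0.19) or second (-0.19) array of the double deletion or the second (-0.16) or the third (-0.18) of the wild type, with adjusted p between 0.0656 and 0.112. TPK3 (0.31, adjusted p = 0.057), CYR1 (-0.27, adjusted p = 0.0797) and RAS2 (-0.08, adjusted p = 0.33) were not called. TPK3 passed without any 1 of 3 arrays of other groups (adjusted p between 0.0149 and 0.049), and CYR1 without the third array of the double deletion (-0.37, adjusted p = 0.0305), the first of the wild type (-0.40, adjusted p = 0.0166) or 1 array of another group (limma). Quantile normalization called both, CYR1 at -0.34 (adjusted p = 0.0368) and TPK3 at 0.31 (adjusted p = 0.0439), and the replicate number as a block called CYR1 (adjusted p = 0.0134). The TPK2 call ended with quantile normalization (-0.29, adjusted p = 0.0594) and with hybridization control centring (-0.21, adjusted p = 0.189). It also ended without the variance trend (adjusted p = 0.0581), without the filter (adjusted p = 0.0503) and with the mean of probe sets (adjusted p = 0.05003; limma). Hybridization control centring ended the GPR1 call too (-0.14, adjusted p = 0.334).

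**Figure D4:**
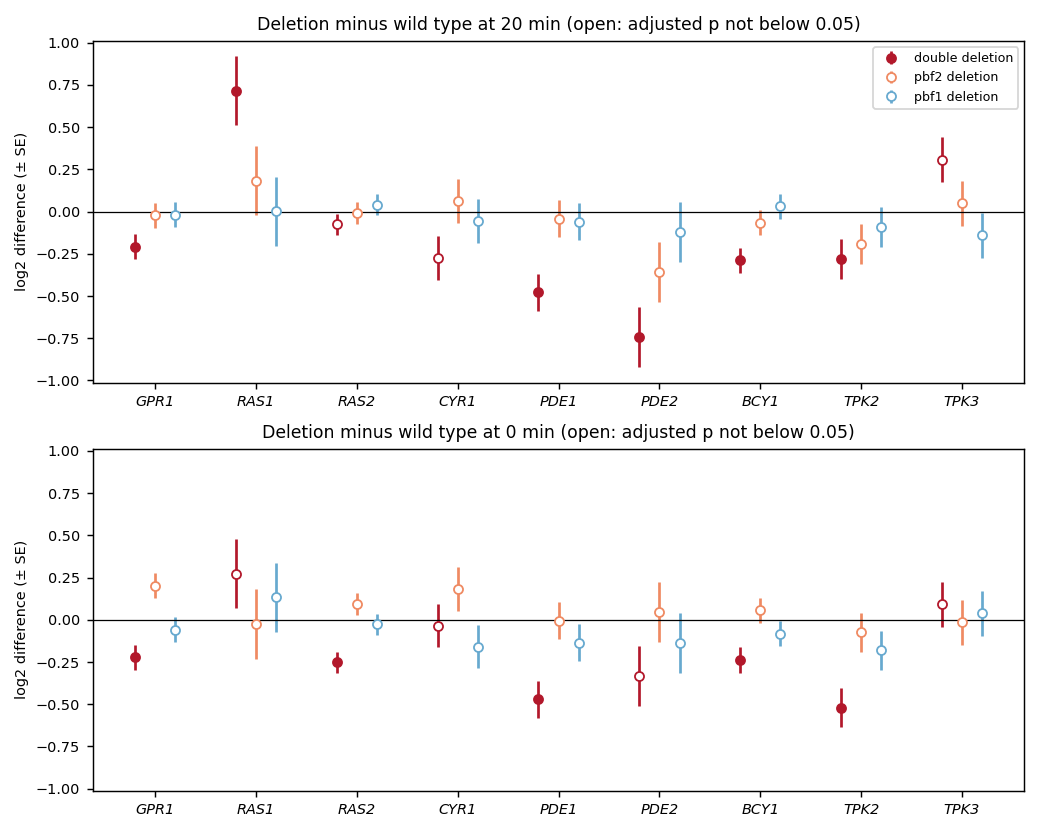
Difference of each deletion from the wild type (log2 ± SE of limma, 3 arrays per group) for the 9 genes at 20 min and at 0 min. Filled points passed an adjusted p of 0.05, and all of them belong to the double deletion. PDE1 lies at -0.48 at 20 min and at -0.47 at 0 min, whereas RAS1 is higher, at 0.71, and PDE2 lower, at -0.74, at 20 min.

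No difference between a single deletion and the wild type was called for any of the 9 genes by limma. In the pbf2 deletion 0 were called at 20 min (0 with an unadjusted p below 0.05, against 13.3% of all genes called) and 0 at 0 min (1 with an unadjusted p below 0.05, against 0.241%). That 1 was GPR1, at 416, 410 and 437 in the pbf2 deletion, against 350, 402 and 349 in the wild type (log2 0.20, adjusted p = 0.68), with ranges apart. The largest difference at 20 min was that of PDE2, at -0.36 (adjusted p = 0.198). In the pbf1 deletion 0 were called at 20 min (0 with an unadjusted p below 0.05, against 0.63% of all genes called) and 0 at 0 min (0 with an unadjusted p below 0.05, against 0.111%). The double deletion and the single deletions were set against the same wild type arrays.

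Ordered by geometric mean over the 8 groups, the 4 groups at 20 min stood above the 4 at 0 min for GPR1, RAS2, CYR1, PDE1, PDE2, BCY1 and TPK2, and below them for RAS1 and TPK3. The double deletion was the lowest of the 20 min groups for those 7 genes and the lowest of the 0 min groups for 6 of them, CYR1 being the exception. Neighbours in the order often overlapped. For PDE1 at 20 min the wild type (2466), the pbf2 deletion (2394) and the pbf1 deletion (2367) overlapped each other in turn, and the double deletion (1772) lay below the range of the pbf1 deletion. For RAS1 at 20 min the double deletion (439) lay above the ranges of the pbf2 deletion (304) and the wild type, but its lowest array (394) was below the highest of the pbf1 deletion (396). The range of the pbf2 deletion overlapped that of the pbf1 deletion (268), and this in turn that of the wild type (268). The 8 groups of PDE2 overlapped each with its neighbour, from 1197 in the wild type at 20 min to 499 in the double deletion at 0 min.

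Cultures with the same number moved alike for several genes, across strains. At 20 min RAS1 was highest on the first array and PDE2 lowest on the second in all 4 strains. PDE1 was highest on the second array at 20 min, and CYR1 and TPK3 on the third, again in all 4 strains. At 0 min TPK2 was highest and TPK3 lowest on the third array in all 4 strains. PDE1 and CYR1 were likewise highest on the third array at 0 min in each strain, and RAS2 was lowest on the first. The main fit does not take the culture number into account. The labels do not say what a culture number shares between strains, and whether it marks a day or a batch was not tested.

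**Figure D5:**
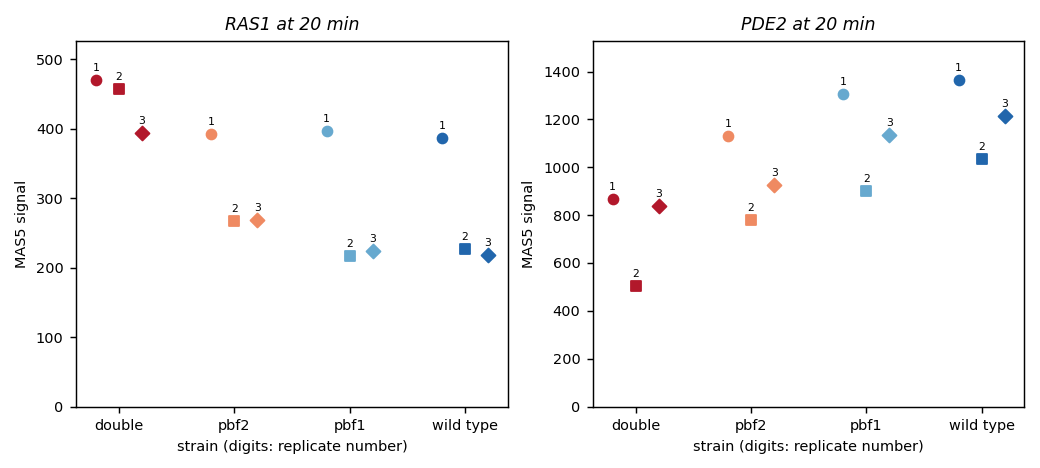
MAS5 signal (linear axis from 0) at 20 min of RAS1 and PDE2 by strain, with 1 point per array marked with its culture number and the double deletion left of the wild type. RAS1 is highest in the first culture and PDE2 lowest in the second in all 4 strains.

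Over the 8 group means, the log2 levels of GPR1, RAS2, CYR1, PDE1, BCY1 and TPK2 followed each other closely, and RAS1 and TPK3 ran against them. BCY1 and PDE1 had a Pearson r of 0.998, TPK2 and RAS2 of 0.994, and RAS1 and BCY1 of -0.993. The PDE2 correlations with these 6 genes were between 0.906 and 0.937. The 8 points share the heat shock and the wild type background, so the correlations describe mainly the time contrast and carry no test. Among all other tested genes, the 2 with the highest r over the same 8 means were PST2 (0.999) and GSP2 (0.999) for GPR1, PAD1 (0.999) and DUS3 (0.999) for RAS1, APE1 (1.00) and SPG3 (0.999) for RAS2, GAL7 (0.998) and HAL1 (0.998) for CYR1, and AIM19 (1.00) and GRX1 (0.999) for PDE1. They were CAT5 (0.995) and PGD1 (0.993) for PDE2, RRT8 (0.999) and FMP16 (0.999) for BCY1, PET494 (0.999) and GCV3 (0.999) for TPK2, and RSA3 (0.989) and IZH1 (0.987) for TPK3. These r values are descriptions of 8 points.

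Other genes of the pathway changed in both directions. Of 28 tested, 14 were higher after heat shock in the wild type, 5 were lower and 9 were not called, against 51% higher and 29.7% lower of all genes. Their median log2 change was 0.34, against 0.27 over all genes. Of the 10 regulators of Ras and cyclic AMP, 6 rose and 2 fell, near the shares of 51% and 29.7% over all genes. TFS1, an inhibitor of carboxypeptidase Y that also binds Ira2, changed by 4.57 ± 0.14 (log2, limma adjusted p = 5.37e-17), with 9432, 9058 and 8696 at 20 min, against 338, 365 and 449 at 0 min. IRA2, a Ras GTPase-activating protein gene, changed by 2.11 ± 0.14, with 5209, 7148 and 8195 at 20 min, against 1511, 1740 and 1447 at 0 min. Its paralog IRA1 was not called (0.13, adjusted p = 0.16). GPA2, the G protein alpha subunit that works with Gpr1, rose by 0.89, and GPB1 (0.66) and GPB2 (0.37), kelch-repeat proteins that bind Gpa2, rose too. CDC25, the Ras guanine nucleotide exchange factor, fell by 0.32 (log2 -0.32), and ASC1, a ribosomal protein that also acts as a G beta subunit, was lower (-1.17).

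Of the 10 kinases and transcription factors downstream of PKA, 6 rose and 2 fell in the wild type, again near the 51% and 29.7% of all genes. The transcription factor genes ADR1 (log2 3.02), GIS1 (1.38) and MSN4 (1.36) and the kinase genes YAK1 (1.28) and RIM15 (1.24) were among those that rose, as was FLO8 (0.57). MSN2, the paralog of MSN4, was not called (0.13, limma adjusted p = 0.169). The kinase gene SCH9 (-0.55) and the transcription factor gene SOK2 (-0.31) fell. Of the 6 genes for lipid modification of Ras, ERF2, a palmitoyltransferase subunit, rose (0.32), RCE1, a CAAX protease, fell (-0.33) and 4 were not called, and of the PKA localisation genes ZDS1 rose (0.66) and ZDS2 was not called (-0.22). These directions hold as the authors scaled the arrays. Spike-in centring shifts all genes alike and took PDE2 from 0.93 to -0.069 in the wild type. Smaller rises, those of GPA2, GPB1, GPB2, FLO8, ERF2 and ZDS1 among them, then lie below 0 too.

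Between the double deletion and the wild type these 28 genes gave 11 lower and 6 higher at 20 min, against 32.4% lower and 20.9% higher of all genes. At 0 min 6 were lower and 1 was higher, against 16% lower and 8.47% higher of all genes. GPA2 was lower at both times, with a log2 difference of -0.45 at 20 min (adjusted p = 0.012) and of -0.68 at 0 min (adjusted p = 0.00213; limma), with 457, 510 and 501 in the double deletion at 0 min and 840, 642 and 883 in the wild type. RGS2, which encodes a GTPase-activating protein for Gpa2, was lower too, at -0.82 at 20 min and -0.71 at 0 min. At 20 min SCH9 (0.53) and ZDS2 (0.80) were higher, and MSN4 (-0.47) and RCE1 (-0.57) lower. The response difference was called for 2 of the 28, RAM1 (0.51, adjusted p = 0.00064), a farnesyltransferase subunit gene, and ZDS2 (0.69, adjusted p = 0.00444; limma), against 27.8% of all genes.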

How the data were processed

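Intensity values, 1 MAS5 signal per probe set and array on a linear scale, were deposited by the authors (MAS5 per the submitters' processing notes, with no version named). Tested on the values, the mean signal trimmed by 2% on each side was 500.3 to 500.4 on every array. The authors' deposited table also holds log2 ratios of 20 min over 0 min and, as a kind of p-value, false discovery rates, per the file headers.

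The 9 genes and the gene lists were chosen with earlier results of these data known. Named are all 9 genes, members of the other pathway lists that pass the test or that a count turns on, and for each of the 9 the 2 tested genes with the highest Pearson r over the 8 group means of log2 signal. TOD6, DOT6 and URA3 serve to check the strains.

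Signals were taken to log2 without a pseudocount. For 47 of 5449 genes the probe set of highest mean signal was used, and 5395 genes with a mean log2 above 2.35, the 90th percentile of probe sets for genes outside S. cerevisiae, were tested. All 24 arrays entered 1 limma fit (limma 3.58.1, R 4.3.3) of 8 group means with trend, with Benjamini-Hochberg adjusted p over 5395 genes within a comparison. Intervals are 95%. Plots used matplotlib 3.10.9. The limma step was tested on simulated data. Cultures were divided between the times, per the labels' protocols, and arrays with the same number were taken as 1 culture, which the titles do not state. Deviations of same-numbered arrays correlated between -0.04 and 0.19 for these pairs, and between the single deletions and the wild type at 20 min between 0.21 and 0.65. Alternatives were 4 other scalings, other filters, probe set rules and variance settings, a pseudocount of 16, a block and each array left out. The block was the culture for heat shock and the replicate number for comparisons between strains.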

Additional observations from a re-analysis of the deposited data

How the results depend on the processing

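Of 46 called results for the 9 genes, 36 kept the call under every alternative other than spike-in centring, and no called result turned its sign under any of those. Centring the arrays on poly(A) spike-in controls reversed 15 called results and ended 20 further calls without a change of sign. It left 3 of the 9 genes called for heat shock in each strain (1 higher, 2 lower), and none (0) in the comparison of the double deletion with BY4741, at either time. The heat shock changes that reversed under it were BCY1 (-0.013), RAS2 (-0.046), PDE2 (-0.53) and CYR1 (-0.10) in the double deletion, RAS2 (-0.019) and PDE2 (-0.22) in the pbf2 deletion, BCY1 (-0.021), RAS2 (-0.32) and PDE2 (-0.27) in the pbf1 deletion, and RAS2 (-0.17) and PDE2 (-0.069) in the wild type. Against the wild type, GPR1 (0.035) at 20 min and BCY1 (0.054), RAS2 (0.040) and GPR1 (0.069) at 0 min reversed in the double deletion. Hybridization control centring gave 3 calls for that comparison at 20 min and 2 at 0 min, and median centring 3 at 0 min. The cause was not tested.

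Leaving out each of 24 arrays gave 7 to 9 heat shock calls in the double deletion, 7 to 9 in the pbf2 deletion, 9 in the pbf1 deletion and 8 to 9 in the wild type. Double deletion against wild type gave 4 to 8 calls at 20 min and 4 to 5 at 0 min, and the response difference 0 to 1. It gave 1 with the first 20 min arrays of all strains left out, an alternative chosen after seeing the data. That alternative also ended the TPK3 heat shock calls in the wild type and the pbf2 deletion. Against the wild type at 20 min, it ended the TPK2 and BCY1 calls of the double deletion. At 0 min it added a call of RAS1 as higher in the double deletion (0.27, adjusted p = 0.0182, limma). With each culture as a block in the heat shock comparisons, TPK3 lost its call in the pbf2 deletion (adjusted p = 0.075, limma). The comparisons between strains were fitted with the replicate number as a block. There CYR1 gained a call at 20 min in the double deletion against the wild type (-0.27, adjusted p = 0.0134, limma). Same-numbered arrays of that comparison correlated between 0.03 and 0.37. No other call changed under either block. Fitting only the groups of the strain comparison gained RAS1 and PDE2 at 0 min (adjusted p = 0.0207 and 0.0458) and TPK3 at 20 min, and lost GPR1 at both times and BCY1 at 0 min. Signal over background limits none of the 9 genes, and 3 arrays per group limit the strain differences.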
